A study of Mus musculus with 8 samples.

Results

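The genes described here are 8 rows of the gene table, read by their symbols: the eosinophil-associated ribonuclease genes Ear1, Ear2, Ear6, Ear10 and Ear11, the eosinophil granule genes Epx and Prg2, and Siglec5, which is the table's symbol for mouse Siglecf. They are 8 of the 23284 genes listed. RNA was measured in lungs, taken whole, from C57BL/6 mice of wild type (WT) that had received a bone marrow transplant and had then spent 3 days in hypoxia. The marrow given to 4 mice lacked the neuronal, inducible and endothelial nitric oxide synthases (n/i/eNOS-/-, called NOS-null marrow here), and that given to the remaining 4 was WT (WT marrow). All recipients were WT, so cells that stem from the recipient keep the 3 synthase genes in both groups. The deletion is therefore carried only by cells that grew from the graft, and how many such cells the lungs held was not measured. The title of the study asks how nitric oxide synthases of myeloid cells bear on the pulmonary hypertension that hypoxia brings on. No lungs of mice in normal air were analysed here.

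Mouse Ear genes encode small secreted ribonucleases of the RNase A family, related to the human eosinophil cationic protein and eosinophil-derived neurotoxin. Eosinophils store them in granules beside eosinophil peroxidase (Epx) and major basic protein (Prg2). In mouse lung, Ear1 and Ear2 are also known from macrophages and from non-classical monocytes, and Siglec-F, the sialic acid binding receptor encoded by Siglecf, stands on both eosinophils and alveolar macrophages. The same gene list can thus report on several cell types, and in whole lung fewer cells of a type cannot be told apart from less RNA per cell.

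All the Ear genes with a position in the annotation used here lie on chromosome 14 (GRCm38, the assembly named mm10). Ear1 spans bases 43818765 to 43819639 on the minus strand, Ear10 bases 43922898 to 43923596 on the minus strand, and Ear2 bases 44102654 to 44103531 on the plus strand. Ear11, which the annotation calls Rnase2a, lies at 51255261 to 51256112 on the minus strand and Ear6 at 51853768 to 51854643 on the plus strand. Siglec5 lies on chromosome 7 (43351341 to 43359475, plus strand), Epx on chromosome 11 (87863997 to 87875536, minus strand) and Prg2 on chromosome 2 (84980461 to 84983632, plus strand). The lincRNA genes AC154806.1 and Gm49101 overlap Ear1 and Ear2 on the opposite strand. The labels do not say whether strand was kept, so reads from these partners could not be separated from those of Ear1 and Ear2.

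The 250 bases before the transcription start are printed for the 2 most abundant Ear genes, for their close copy Ear10, which had no reads, and for Siglec5, which moved the other way (RefSeq, GRCm38.p6). Capitals mark matches, on either strand, to 3 short motifs of myeloid factors: the C/EBP motif TTNNGNAA, the PU.1 motif GAGGAAG and the GATA motif AGATAA. The windows are chr14:43819640-43819889 (minus strand) for Ear1, chr14:44102404-44102653 (plus strand) for Ear2, chr14:43923597-43923846 (minus strand) for Ear10 and chr7:43351091-43351340 (plus strand) for Siglec5.
Ear1: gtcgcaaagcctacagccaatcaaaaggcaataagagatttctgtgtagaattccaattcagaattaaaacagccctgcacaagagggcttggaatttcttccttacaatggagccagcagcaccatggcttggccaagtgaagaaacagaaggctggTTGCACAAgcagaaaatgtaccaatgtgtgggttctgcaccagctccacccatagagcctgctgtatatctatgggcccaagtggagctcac
Ear2: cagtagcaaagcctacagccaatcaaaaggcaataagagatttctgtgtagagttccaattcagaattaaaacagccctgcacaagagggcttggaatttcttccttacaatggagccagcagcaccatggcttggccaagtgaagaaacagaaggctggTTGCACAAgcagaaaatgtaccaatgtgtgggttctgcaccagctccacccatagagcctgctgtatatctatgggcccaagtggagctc
Ear10: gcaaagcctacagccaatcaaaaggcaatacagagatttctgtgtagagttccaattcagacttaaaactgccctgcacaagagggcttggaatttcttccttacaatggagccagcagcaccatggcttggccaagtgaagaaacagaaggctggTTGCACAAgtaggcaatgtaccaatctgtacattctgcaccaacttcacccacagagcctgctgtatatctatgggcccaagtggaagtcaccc
Siglec5: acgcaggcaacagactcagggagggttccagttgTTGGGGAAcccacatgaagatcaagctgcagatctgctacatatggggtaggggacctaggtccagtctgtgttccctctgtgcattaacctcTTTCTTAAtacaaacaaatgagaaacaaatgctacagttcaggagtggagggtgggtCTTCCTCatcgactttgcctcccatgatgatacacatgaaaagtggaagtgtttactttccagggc
Ear1, Ear2 and Ear10 each held 1 match, to the C/EBP motif on the minus strand, starting at position −92, −90 and −94 relative to the transcription start. Siglec5 held 2 C/EBP matches, starting at −216 and −123, and 1 PU.1 match on the minus strand, starting at −66, and no 2 matches overlapped. The window of Epx held none of the 3 motifs. Of 32817 windows of 300 bases in the RefSeq table, which also take in the first 50 bases of the transcript, 40.7% held the C/EBP motif, 13.6% the PU.1 motif and 11.2% the GATA motif. The 300-base windows of Ear1 and Ear2 were identical at 97.0% of aligned positions, those of Ear1 and Ear10 at 91.4% and those of Ear2 and Ear10 at 89.5%.

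Values are read counts that the authors divided by 1 size factor per library, called scaled reads, and 1 read was worth 0.937 to 1.088 scaled reads. Library sums of scaled reads ran from 7767065 to 8625142, with 16778 to 17621 genes above 0. Such sums do not measure depth, since the scaling evens it out. NOS-null marrow replicate 4 had both the lowest sum and the highest value of 1 read, so it held the fewest reads. A gene at 0 may still have a level of up to 2.81 to 3.26 scaled reads (3 reads, counting error only). Lung genes were high in every library, with the alveolar type 2 cell gene Sftpc at 64852 to 94477 scaled reads in NOS-null marrow and 88163 to 112303 in WT marrow. Nos2, the inducible synthase, stood at 29.5 ± 14.7 scaled reads in NOS-null marrow and 98.6 ± 13.1 in WT marrow (SD, n = 4 each, log2 change −1.84, adjusted p = 0.0221), a call that ended without NOS-null marrow replicate 2 (adjusted p = 0.0717) or when 1 library of WT marrow was left out (0.053 to 0.0744). Nos3 stood at 194 ± 18.0 scaled reads in NOS-null marrow and 184 ± 15.8 in WT marrow (adjusted p = 0.701), and Nos1 was at 0 except for 1.09 in NOS-null marrow replicate 4. On principal component 1 (49.2% of the variance), NOS-null marrow replicates 1 to 4 lay at −57.7, −32.3, −3.35 and −1.40 and the WT marrow libraries at 17.7 to 27.2. The labels do not say how the mice of a group relate, so the p-values reflect the spread among these libraries, which may be technical in part.

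Of the 8 genes, Ear2 was higher and Siglec5 lower with NOS-null marrow, Ear1 did not pass the test, and the other 5 were too low to enter it. Log2 changes, NOS-null marrow minus WT marrow, are of log2(scaled reads + 1) and were tested with limma over the 14008 genes that reached 10 scaled reads in at least 4 libraries. A gene was called when its p, adjusted over all of them by Benjamini-Hochberg, was under 0.05. By this rule 4.05% of all tested genes were called, 1.87% higher and 2.18% lower, against 1 higher and 1 lower of the 3 tested here. An unadjusted p under 0.05, counted below for lists of other genes, was reached by 13.3% of all tested genes in each direction. Ear1, Ear2 and Siglec5 each reached 10 scaled reads in all 8 libraries, so none passed the filter through 1 group alone. Ear6, Ear11, Epx and Prg2 had reads in some libraries but stayed under the filter, and Ear10 had none.

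Ear2, the most abundant ribonuclease of the group, stood at 661, 717, 470 and 550.1 scaled reads in NOS-null marrow replicates 1 to 4, against 394, 260.3, 306 and 306 in WT marrow replicates 1 to 4. The lowest NOS-null marrow library lay above the highest WT marrow library, a separation that 17.1% of all tested genes showed in either direction and 7.82% in this one. Scaled reads averaged 599.6 ± 111 in NOS-null marrow and 317 ± 55.9 in WT marrow (SD, n = 4 each). The log2 change was 0.92 (SE 0.16, 95% interval 0.57 to 1.26, adjusted p = 0.0186). The call ended when replicate 2 of NOS-null marrow was left out (log2 change 0.82, adjusted p = 0.0609), when replicate 2 of WT marrow was (0.83, 0.0603) and when replicate 3 of WT marrow was (0.91, 0.0597), as well as without NOS-null marrow replicates 1 and 2 together (0.70, 0.056).

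Ear1 stood at 121, 191, 176 and 161 scaled reads in NOS-null marrow replicates 1 to 4, against 146, 114, 78.8 and 100.2 in WT marrow replicates 1 to 4. The groups overlapped, because NOS-null marrow replicate 1 lay below WT marrow replicate 1. Scaled reads averaged 162 ± 30.0 in NOS-null marrow and 110 ± 28.2 in WT marrow (SD, n = 4 each, log2 change 0.57, SE 0.20, 95% interval 0.13 to 1.02, adjusted p = 0.109). Ear2 had 5.47, 3.77, 2.66 and 3.42 times the scaled reads of Ear1 in the 4 NOS-null marrow libraries, against 2.70, 2.28, 3.88 and 3.06 times in the WT marrow libraries. The difference of this log2 ratio between the groups was 0.34 (two-sided exact permutation test over 70 assignments, p = 0.286). A difference between the changes of Ear2 and Ear1 was not shown.

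**Figure D1:**
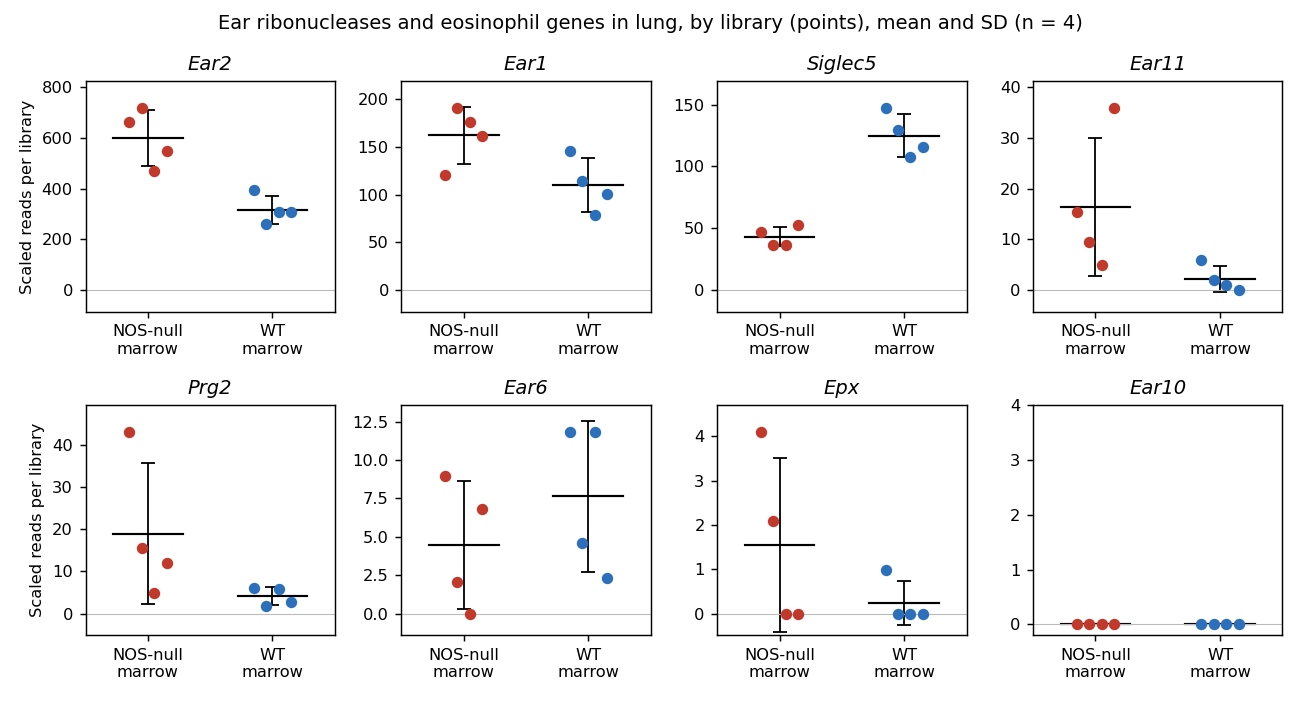
Scaled reads of the 8 genes in each lung library (points), with the mean (bar) and SD (whiskers) of the 4 NOS-null marrow and 4 WT marrow libraries, each panel with its own linear axis. Ear2 and Siglec5 show groups that do not overlap, in opposite directions, while Ear10 is at 0 in all 8 libraries.

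Several Ear genes are near-identical copies. The table shows how some of their reads were shared out, but not those common to Ear1, Ear2 and Ear10. The longest coding transcripts of Ear1 and Ear2 were identical at 96.0% of aligned positions, those of Ear2 and Ear10 at 89.0% and those of Ear1 and Ear10 at 87.7%. Reads were 75 bases long. Of the 645 stretches of 75 bases in Ear2 transcripts, 494 (76.6%) occurred in no other gene's transcripts, and of the 639 in Ear1 transcripts 388 (60.7%) did. The shared stretches occurred in the other of these genes, in Ear10 or in the pseudogenes Ear-ps2 and Ear-ps9. All such stretches of Ear6, Ear11, Epx, Prg2 and Siglec5 were unique in this annotation.

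Whole reads came back for most of the genes when a value was divided by the value of 1 read. Ear1, Ear11, Siglec5, Epx and Prg2 were within 0.05 of a whole number in 8 of 8 libraries. Reads given whole to 1 of several copies, or dropped, leave no trace in this check. How reads common to Ear1, Ear2 and Ear10 were placed was therefore not tested. Ear2 alone was whole in 2 of 8 libraries, and Ear12, a further Ear symbol of the table, in 0 of the 6 libraries where it was above 0, but the sum of Ear2 and Ear12 was whole in 8 of 8. The sum came to 645, 689, 491 and 524 reads in NOS-null marrow replicates 1 to 4, against 397, 278, 311 and 324 reads in WT marrow replicates 1 to 4. Ear12 took 14.5 and 19.8 scaled reads in NOS-null marrow replicates 3 and 4, 0 in replicates 1 and 2, and at most 0.501 in any WT marrow library. With the pair summed, the log2 change was 0.94 (limma adjusted p = 0.0143), so the Ear2 call did not turn on how this pair was split. Ear12 itself has groups that cannot be compared, since the same reads could be given to either symbol.

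**Figure D2:**
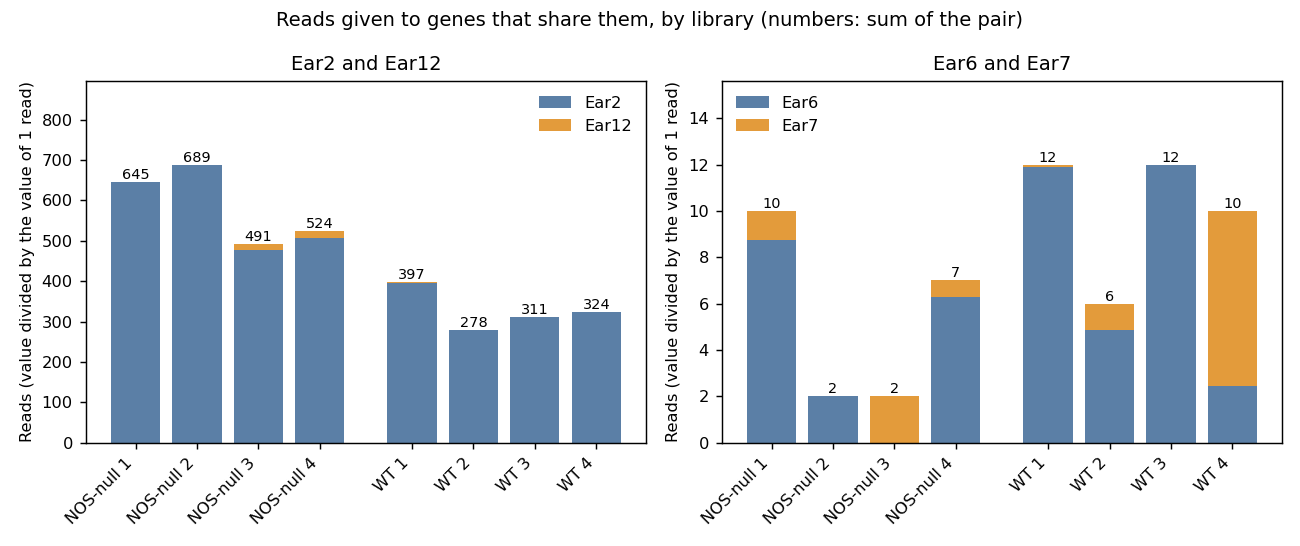
Reads given to each gene of 2 pairs that share them, stacked by library (value divided by the value of 1 read), with the sum of the pair printed above each bar. The Ear2 and Ear12 sums run from 491 to 689 reads in NOS-null marrow and from 278 to 397 in WT marrow, while Ear6 and Ear7 together have at most 12 reads.

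Summed over the 10 Ear symbols of the table, the level was 808, 919, 667 and 774 scaled reads in NOS-null marrow replicates 1 to 4, against 559, 386, 398 and 417 in WT marrow replicates 1 to 4. The lowest NOS-null marrow sum lay above the highest WT marrow sum. Ear1 and Ear2 made up 91.8 to 98.8% of it in NOS-null marrow and 96.5 to 97.5% in WT marrow. The sum averaged 792 ± 104 scaled reads in NOS-null marrow and 440.1 ± 80.6 in WT marrow (SD, n = 4 each), a log2 ratio of 0.85. The sum is given without a test because it adds up the genes under study.

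Siglec5, the receptor Siglec-F, went the other way. It stood at 47.2, 36.4, 36.5 and 52.2 scaled reads in NOS-null marrow replicates 1 to 4, against 147, 129, 107 and 115 in WT marrow replicates 1 to 4. Every NOS-null marrow library lay below every WT marrow library, as for 9.29% of all tested genes. Scaled reads averaged 43.1 ± 7.91 in NOS-null marrow and 125 ± 17.4 in WT marrow (SD, n = 4 each). The log2 change was −1.52 (SE 0.17, 95% interval −1.89 to −1.15, adjusted p = 0.00248). The call held in each of the 20 alternative fits, with a log2 change of −1.62 to −1.44 over the 8 fits that left out 1 library. The spread within NOS-null marrow was small here: replicates 1 and 2, which stood apart on principal component 1, had 47.2 and 36.4 scaled reads, and replicates 3 and 4 had 36.5 and 52.2.

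Set against each other, Ear2 exceeded Siglec5 by 3.77 ± 0.37 on the log2 scale in NOS-null marrow and by 1.33 ± 0.22 in WT marrow (SD, n = 4 each). The difference was 2.44 (two-sided exact permutation test, p = 0.0286, and 0.114 after Benjamini-Hochberg adjustment over the 4 gene ratios computed). Both genes were already fully apart between the groups, in opposite directions. The test of their ratio could therefore only give the smallest p that 4 against 4 libraries allow, and adds no support. These ratios were chosen after the values had been seen.

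**Figure D3:**
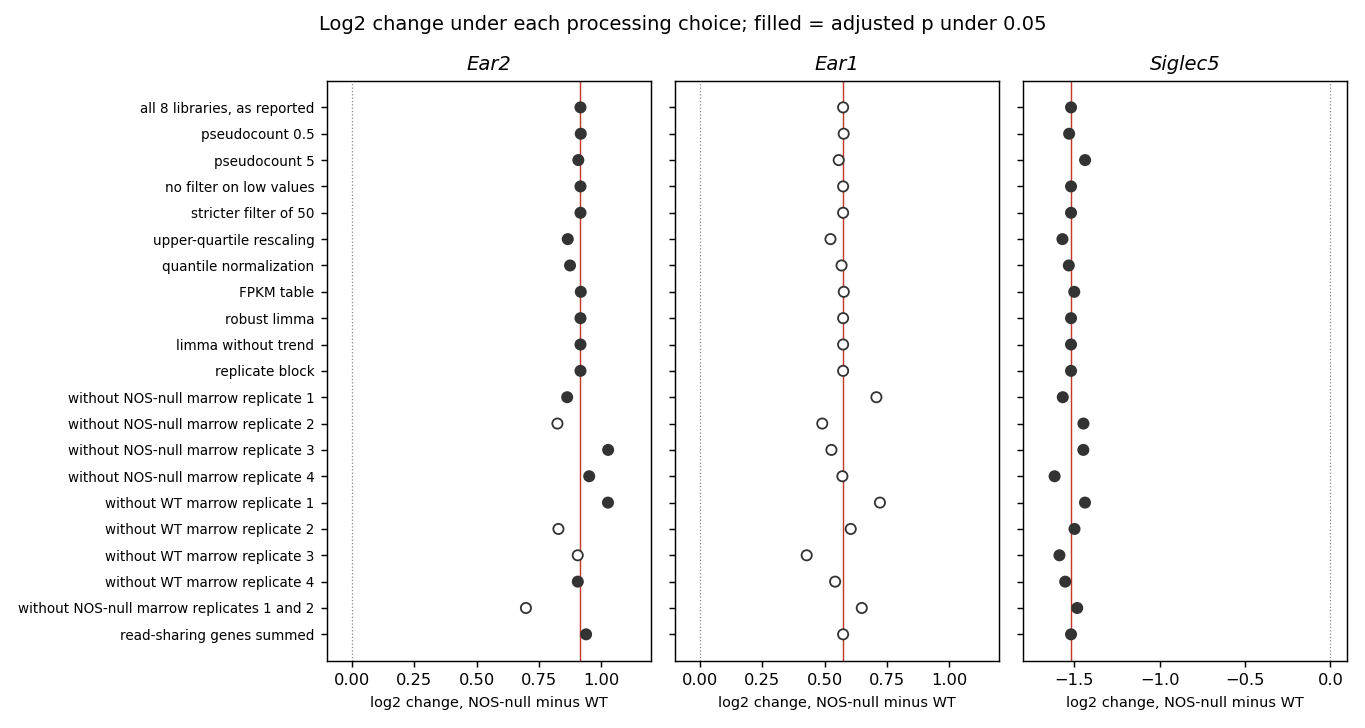
Log2 change of Ear2, Ear1 and Siglec5 (horizontal axes, NOS-null marrow minus WT marrow) in the fit of all 8 libraries and under each alternative (rows); filled points have an adjusted p under 0.05 and the red line is the value with all libraries. Siglec5 is filled in every row, Ear1 in none, and Ear2 is open in 4.

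The granule genes and the minor Ear genes were low, and Epx and Ear6 were close to the detection limit. Ear11, whose product is known in mouse as a chemoattractant of macrophages, stood at 15.4, 9.37, 4.93 and 35.9 scaled reads in NOS-null marrow replicates 1 to 4, against 5.96, 1.87, 0.985 and 0 in WT marrow replicates 1 to 4. The groups overlapped by 1 library each, since NOS-null marrow replicate 3 lay below WT marrow replicate 1. Scaled reads averaged 16.4 ± 13.7 in NOS-null marrow and 2.21 ± 2.62 in WT marrow, from 62 reads in NOS-null marrow and 9 in WT marrow (ratio of pooled values 7.38, 95% interval 3.65 to 16.9, counting error only). Over libraries the difference of mean log2 values was 2.47 (two-sided exact permutation test, p = 0.0571), and in the limma fit with no filter on low values, which called 2.15% of 19741 genes, its adjusted p was 0.0741. With 1 library left out the difference ran from 2.00 (without NOS-null marrow replicate 4, exact p = 0.0857) to 2.96 (without WT marrow replicate 1, exact p = 0.0286, the smallest that 3 against 4 libraries allow), and the other 6 had an exact p of 0.0571 or 0.0857. The ratio of pooled values was 4.53 without NOS-null marrow replicate 4 (95% interval 2.09 to 10.9) and 16.8 without WT marrow replicate 1 (5.48 to 83.5, from 3 reads in WT marrow).

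Prg2, the gene of major basic protein, stood at 43.1, 15.6, 4.93 and 11.96 scaled reads in NOS-null marrow replicates 1 to 4, against 5.96, 1.87, 5.91 and 2.84 in WT marrow replicates 1 to 4. Of the NOS-null marrow libraries 3 lay above all WT marrow libraries, and replicate 1 was the highest. Scaled reads averaged 18.9 ± 16.7 in NOS-null marrow and 4.15 ± 2.11 in WT marrow, from 73 reads in NOS-null marrow and 17 in WT marrow (ratio of pooled values 4.6, 95% interval 2.69 to 8.32, counting error only). The difference of mean log2 values was 1.68 (two-sided exact permutation test, p = 0.0857), and the adjusted p with no filter was 0.128. With 1 library left out the difference ran from 1.18 (without NOS-null marrow replicate 1, exact p = 0.171) to 2.14 (without NOS-null marrow replicate 3, exact p = 0.0286), and the other 6 had an exact p of 0.0857 or 0.114. Without NOS-null marrow replicates 1 and 2 it was 0.87 (exact p = 0.267). The ratio of pooled values was 2.61 without NOS-null marrow replicate 1 (95% interval 1.40 to 5.03) and 2.02 without replicates 1 and 2 (0.954 to 4.25).

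Epx, the gene of eosinophil peroxidase, stood at 4.10, 2.08, 0 and 0 scaled reads in NOS-null marrow replicates 1 to 4 and at 0.994, 0, 0 and 0 in WT marrow replicates 1 to 4. These are 6 reads in NOS-null marrow and 1 in WT marrow (ratio of pooled values 6.43, 95% interval 0.78 to 296, and 2.87, 0.149 to 169, without NOS-null marrow replicate 1, counting error only). A difference between the groups was not detectable at this depth (two-sided exact permutation test, p = 0.429). Prg3, a second major basic protein gene, was at 2.05 scaled reads in NOS-null marrow replicate 1, at 1.99 in WT marrow replicate 1 and at 0 in the other 6 libraries. With the granule genes Epx and Prg3 at or near 0, the 8 genes are taken here one by one and not as a measure of eosinophils.

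Ear6 stood at 8.98, 2.08, 2.18e-05 and 6.83 scaled reads in NOS-null marrow replicates 1 to 4, against 11.8, 4.57, 11.8 and 2.33 in WT marrow replicates 1 to 4. The groups overlapped (log2 difference −0.92, two-sided exact permutation test, p = 0.4). Ear6 shared its reads with Ear7, and only the sum of both was whole in 8 of 8 libraries, at 10, 2, 2 and 7 reads in NOS-null marrow and 12, 6, 12 and 10 in WT marrow. Ear10 was at 0 in all 8 libraries, as were Ear4 and Ear14. Ear5 was at 0 in all NOS-null marrow libraries and at 0.994, 3.75, 0 and 0.945 scaled reads in WT marrow replicates 1 to 4.

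Per transcript length the order of the genes was similar at the top and differed below it. FPKM, the deposited values of fragments per kilobase of transcript scaled to library size, averaged 141 ± 26.1 in NOS-null marrow and 74.3 ± 13.1 in WT marrow for Ear2. Ear1 came second, at 38.3 ± 7.09 FPKM in NOS-null marrow and 25.9 ± 6.66 in WT marrow. In neither group did the libraries of Ear1 and Ear2 overlap, with Ear2 at 110 to 168 and Ear1 at 28.6 to 44.98 FPKM in NOS-null marrow, and Ear2 at 61.1 to 92.5 and Ear1 at 18.6 to 34.5 in WT marrow. In WT marrow Siglec5 came next at 6.64 ± 0.93 FPKM, above every library of Ear6 (1.81 ± 1.16), Prg2 (0.784 ± 0.398) and Ear11 (0.545 ± 0.648). In NOS-null marrow Ear11 (4.05 ± 3.39), Prg2 (3.58 ± 3.16), Siglec5 (2.29 ± 0.42) and Ear6 (1.06 ± 0.98) overlapped one another. Epx averaged 0.0742 FPKM in NOS-null marrow and 0.0119 in WT marrow.

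No other gene of the RNase A family was called. Of 18 further Ear and RNase genes of the table, the inhibitor gene Rnh1 included, 4 passed the filter and 0 were called in either direction, also without NOS-null marrow replicates 1 and 2, and 0 had an unadjusted limma p under 0.05. Rnase4, which lies in the same family as angiogenin and is expressed in many tissues, stood at 4495 ± 379 scaled reads in NOS-null marrow and 3972 ± 226 in WT marrow (log2 change 0.18, adjusted p = 0.201). Rnase6 stood at 66.1 ± 25.4 scaled reads in NOS-null marrow and 81.2 ± 16.0 in WT marrow (−0.34, adjusted p = 0.409). Angiogenin (Ang) stood at 129 ± 15.6 scaled reads in NOS-null marrow and 131 ± 12.5 in WT marrow (−0.03, adjusted p = 0.916, of either sign under the alternatives). Rnh1, which encodes the cytosolic inhibitor of these ribonucleases, stood at 1826 ± 145 scaled reads in NOS-null marrow and 1794 ± 107 in WT marrow (0.02, adjusted p = 0.869, below 0 under upper-quartile and quantile scaling). Rnase1, Rnase9, Rnase10, Rnase12, Ang2, Ang5 and Ang6 had at most 2.81 scaled reads in any library. The median log2 change over the 4 tested genes was −0.00, beside 0.00 over all tested genes.

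Other genes of eosinophils went both ways. Of 25 in the table, 22 were tested, 0 were called higher, 1 lower and 21 neither, with a median log2 change of 0.24 and 14 values above 0. At unadjusted p under 0.05 there were 8 higher and 2 lower, against 13.3% of all tested genes in each direction. Without NOS-null marrow replicate 1 the median was 0.07, with 12 values above 0. Without replicates 1 and 2 it was 0.12, with 14 above 0. Xbp1, a transcription factor of secretory cells that eosinophil development needs, was the gene called, at 2519 ± 233 scaled reads in NOS-null marrow and 3244 ± 179 in WT marrow (log2 change −0.37, adjusted p = 0.0423). The Xbp1 call ended in 12 of 20 alternatives, among them the fits without NOS-null marrow replicate 1 (adjusted p = 0.0516), 2 (0.113) or 3 (0.0542) and each of those that left out 1 WT marrow library (0.07996 to 0.129). The most abundant genes of the list among those not called, Cd24a and Itgb2, stood at 5062 ± 981 and 1491 ± 681 scaled reads in NOS-null marrow, against 3694 ± 693 and 849 ± 114 in WT marrow (adjusted p = 0.112 and 0.129).

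Ccr3, the eotaxin receptor of eosinophils, and Il5ra, their interleukin-5 receptor chain, were singled out after their values had been seen. Ccr3 stood at 10.3, 5.21, 5.92 and 50.03 scaled reads in NOS-null marrow replicates 1 to 4, against 85.4, 44.0, 51.2 and 39.7 in WT marrow replicates 1 to 4. The first 3 NOS-null marrow libraries lay below all WT marrow libraries and replicate 4 lay among them (log2 change −2.10, SE 0.59, adjusted p = 0.0659). Without NOS-null marrow replicate 4 the change was −2.77 (adjusted p = 0.00632). Ccr3 was called in no other alternative, with an adjusted p of up to 0.181 when 1 library was left out. Il5ra stood at 4.10, 4.16, 10.8 and 13.1 scaled reads in NOS-null marrow, against 12.9, 22.5, 12.8 and 9.45 in WT marrow (log2 change −0.86, adjusted p = 0.222). The gene names thus fall on both sides: Ear11 and Prg2 had higher mean levels in NOS-null marrow and Ccr3 and Il5ra lower ones, none of them past the threshold, while Epx and Prg3 were at 4.10 scaled reads or less in every library. The log2 ratio of Siglec5 to Ccr3 differed by 0.58 between the groups (two-sided exact permutation test, p = 0.4). With 1 library left out the difference ran from 0.31 to 1.16 (exact p 0.0286 to 0.686, unadjusted), and was largest without NOS-null marrow replicate 4.

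**Figure D4:**
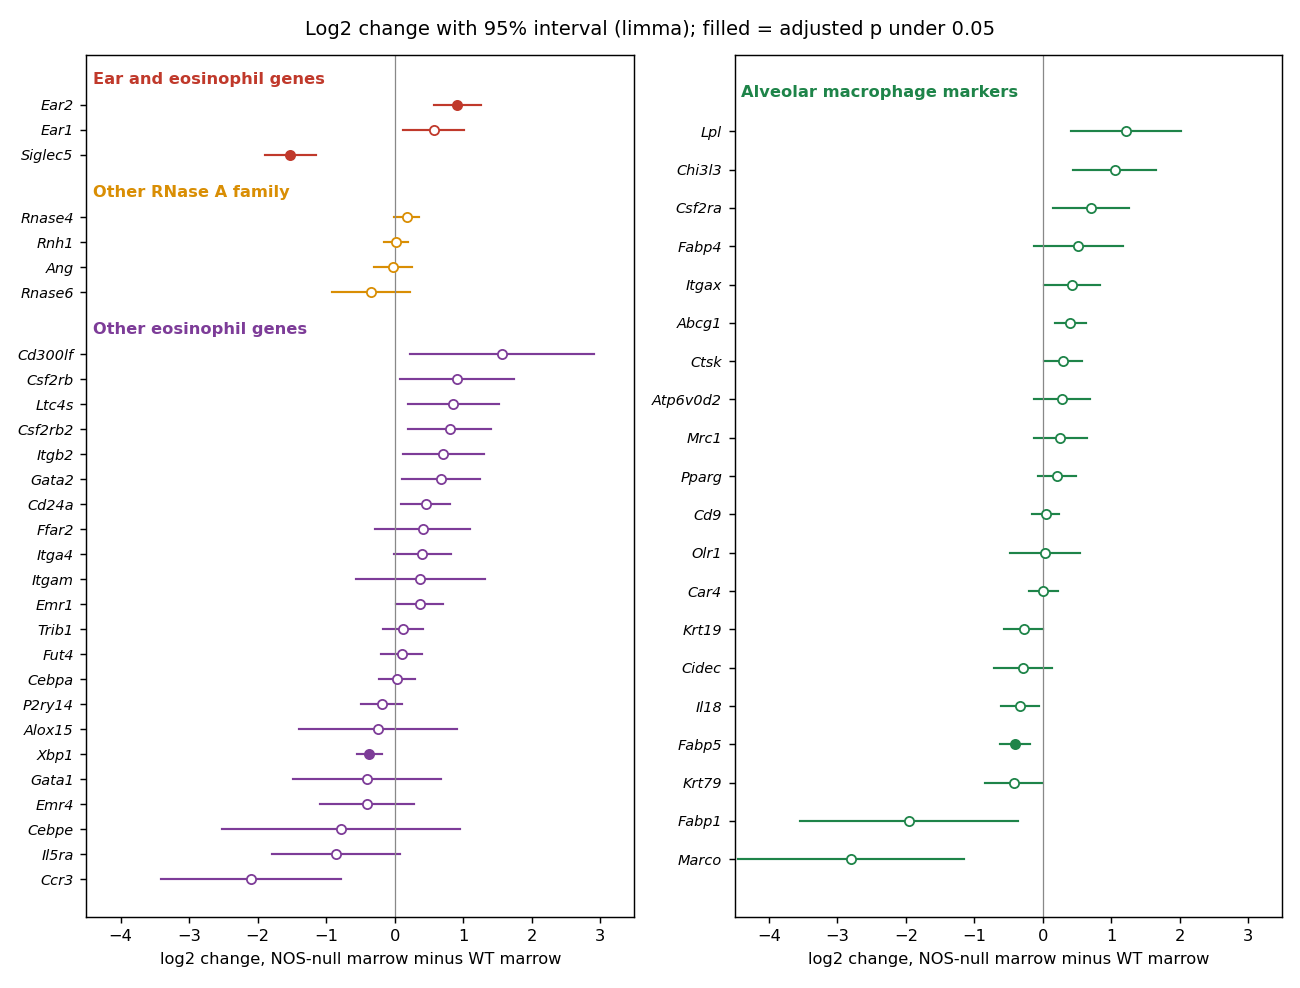
Log2 change (horizontal axis, NOS-null marrow minus WT marrow) with its 95% interval for each tested Ear or eosinophil gene, RNase A family gene and alveolar macrophage marker; filled points have an adjusted p under 0.05. Ear2, Siglec5, Xbp1 and Fabp5 are filled, and the intervals of Ccr3 and Marco are wide.

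Chemoattractants and type 2 cytokines were mostly low. Of 24 genes listed, 15 were tested and limma called 0 (at unadjusted p under 0.05, 1 higher and 3 lower, beside 13.3% of all tested genes each way), with a median log2 change of −0.18. Ccl24, an eotaxin that attracts eosinophils through Ccr3, stood at 2.05, 0, 6.90 and 15.2 scaled reads in NOS-null marrow replicates 1 to 4, against 56.6, 8.43, 22.7 and 6.62 in WT marrow replicates 1 to 4, and did not enter the test. The most abundant genes were Lgals3, which encodes galectin-3 (2107 ± 566 scaled reads in NOS-null marrow and 1621 ± 159 in WT marrow, adjusted p = 0.186), the interleukin-4 receptor gene Il4ra (1683 ± 856 in NOS-null marrow and 1299 ± 126 in WT marrow, adjusted p = 0.556) and its signal transducer Stat6 (1137 ± 78.3 in NOS-null marrow and 1031 ± 88.3 in WT marrow, adjusted p = 0.295). Without NOS-null marrow replicate 1 the chemokine gene Ccl8 was called higher (log2 change 1.33, adjusted p = 0.0321). Without replicates 1 and 2 the Ccr4 ligands Ccl17 (−1.60, adjusted p = 0.00906) and Ccl22 (−1.46, adjusted p = 0.00877) were called lower, and Ccl22 also without replicate 2 alone (−1.67, adjusted p = 0.0217).

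The 3 haem peroxidase genes that passed the filter, relatives of Epx, were Pxdn, Ptgs1 and Ptgs2, and limma called 0 (1 higher at unadjusted p under 0.05, beside 13.3% of all tested genes, median log2 change 0.28). Ptgs1, a prostaglandin synthase, stood at 1113 ± 157 scaled reads in NOS-null marrow and 880.3 ± 58.7 in WT marrow (adjusted p = 0.0802). Myeloperoxidase (Mpo), the neutrophil counterpart of Epx, stood at 54.3, 13.5, 0 and 2.18 scaled reads in NOS-null marrow replicates 1 to 4, against 0, 0.937, 1.97 and 0 in WT marrow.

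Siglec5 was not tested against the other sialic acid binding lectins of the table, of which 7 were tested for a change and limma called 0 (at unadjusted p under 0.05, 3 higher and 1 lower, beside 13.3% of all tested genes each way, median log2 change 0.54). Cd33 stood at 1109, 262, 141 and 162 scaled reads in NOS-null marrow replicates 1 to 4, against 69.6, 76.8, 91.6 and 54.8 in WT marrow replicates 1 to 4. Every NOS-null marrow library was above every WT marrow library (log2 change 1.97, adjusted p = 0.0626), and the gene was called without replicate 1 (1.32, adjusted p = 0.0174), 3 (0.0424) or 4 (0.0488) of NOS-null marrow. Siglece had the same order of groups, at 53.2 to 399 scaled reads in NOS-null marrow and 26.5 to 50.7 in WT marrow (1.51, adjusted p = 0.124). Siglecg, a B cell lectin, stood at 3.08, 9.37, 43.4 and 47.9 scaled reads in NOS-null marrow replicates 1 to 4, against 74.5, 135, 74.9 and 72.8 in WT marrow (−2.32, adjusted p = 0.0758, and 0.0482 or 0.0408 without NOS-null marrow replicate 3 or 4). Cd22 stood at 101 ± 30.5 scaled reads in NOS-null marrow and 148 ± 62.9 in WT marrow (−0.52, adjusted p = 0.27), and Siglec1, a macrophage lectin, at 60.8 ± 22.0 in NOS-null marrow and 32.1 ± 6.92 in WT marrow (0.84, adjusted p = 0.102; 1.11 and 0.0300 without NOS-null marrow replicate 1).

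Alveolar macrophages carry Siglec-F, and their markers went both ways. Of 20 tested markers, 0 were called higher, 1 lower and 19 neither, 13 had a log2 change above 0, and the median was 0.13. At unadjusted p under 0.05 there were 6 higher and 5 lower, beside 13.3% of all tested genes each way. The summed level was 23197 to 45095 scaled reads in NOS-null marrow and 20433 to 22504 in WT marrow. Without Chi3l3, which the classical monocyte list also holds, the ranges overlapped, at 14918 to 22838 scaled reads in NOS-null marrow and 14337 to 15778 in WT marrow. Of this, Cd9 alone held 4973 to 6253 scaled reads in NOS-null marrow and 4948 to 5423 in WT marrow. The sums therefore say little about the less abundant markers or about these macrophages. Fabp5, a fatty acid binding protein gene, was the marker called, at 775 ± 57.4 scaled reads in NOS-null marrow and 1035 ± 128 in WT marrow (log2 change −0.41, adjusted p = 0.0495), and it was lost in 12 of 20 alternatives, among them those lacking replicate 1, 2 or 3 of NOS-null marrow or any single WT marrow library (highest adjusted p 0.145). Chi3l3, a chitinase-like gene and the most abundant marker on average, stood at 22258, 14784, 7576 and 9830 scaled reads in NOS-null marrow replicates 1 to 4, against 6726, 5507, 5892 and 6095 in WT marrow (1.05, adjusted p = 0.0563), and was called without replicate 1 (adjusted p = 0.0468), 3 (0.0210) or 4 (0.0485) of NOS-null marrow and under quantile scaling (0.0362). Cd9 stood at 5419 scaled reads on average in NOS-null marrow and 5232 in WT marrow (0.05, of either sign under the alternatives).

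The scavenger receptor gene Marco, 1 of these 20 alveolar macrophage markers, was singled out after its values had been seen. Of the 20, 13 had a log2 change above 0, unlike Marco. It stood at 8.20, 13.5, 0 and 15.2 scaled reads in NOS-null marrow replicates 1 to 4. In WT marrow replicates 1 to 4 it stood at 47.7, 49.6, 46.3 and 43.5. Every NOS-null marrow library was below every WT marrow library (log2 change −2.81, SE 0.74, adjusted p = 0.0585). Marco was called without NOS-null marrow replicate 3 (−1.88, adjusted p = 0.00884), where it was at 0, without replicate 4 (−3.22, adjusted p = 0.0418) and with 5 in place of 1 added before the log2 (−2.04, adjusted p = 0.0244). The log2 ratio of Siglec5 to Marco differed by 1.29 between the groups (two-sided exact permutation test, p = 0.0857, adjusted over 4 ratios 0.171). With 1 library left out the difference ran from 0.43 to 1.72 (exact p 0.0286 to 0.257, unadjusted), and was largest without NOS-null marrow replicate 2. The part of alveolar macrophages in the Siglec5 change was not tested.

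Non-classical monocytes, another source of Ear2 RNA in mouse, had 12 tested markers, of which 0 were called higher, 1 lower and 11 neither. At unadjusted p under 0.05 there were 2 higher and 2 lower, beside 13.3% of all tested genes each way. The median log2 change was 0.13. The summed level was 20442 to 24808 scaled reads in NOS-null marrow and 22308 to 24907 in WT marrow. Most of it came from Cd36 and Ace, at 9735 and 11859 scaled reads in NOS-null marrow replicate 1 and 16489 and 6956 in WT marrow replicate 1. The sum therefore says little about the other markers or about these monocytes. Cd36, a fatty acid receptor that endothelial cells also make, was the gene called, at 10842 ± 742 scaled reads in NOS-null marrow and 14818 ± 1590 in WT marrow (−0.45, adjusted p = 0.0421). The Cd36 call ended in 10 of 20 alternatives, among them those lacking replicate 1, 2 or 3 of either group (highest adjusted p 0.127). The angiotensin-converting enzyme gene Ace stood at 8874 ± 2027 scaled reads in NOS-null marrow and 6977 ± 1116 in WT marrow (adjusted p = 0.211), and the integrin gene Itgal at 609 ± 199.6 in NOS-null marrow and 420.3 ± 68.3 in WT marrow (adjusted p = 0.173). Classical monocytes had 10 tested markers and 0 limma calls (3 higher and 0 lower at unadjusted p under 0.05, beside 13.3% of all tested genes each way, median log2 change 0.50), with Ly6c1 at 8087 ± 3347 scaled reads in NOS-null marrow and 4985 ± 340.1 in WT marrow (adjusted p = 0.138, and 0.0384 without NOS-null marrow replicate 4) and Fn1 at 5956 ± 1090 in NOS-null marrow and 5526 ± 973 in WT marrow (adjusted p = 0.683).

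Neutrophil RNA was highest in NOS-null marrow replicate 1, which also had the highest Prg2 and Epx values. Of 16 neutrophil markers 11 were tested and limma called 0 (9 higher at unadjusted p under 0.05, beside 13.3% of all tested genes), but all 11 had a log2 change above 0, with a median of 2.13. Leaving out replicate 1 of NOS-null marrow gave a median of 1.38 for these 11 genes, and leaving out replicates 1 and 2 gave 0.86, with 10 of the 11 above 0. Their summed level was 8497 to 105333 scaled reads in NOS-null marrow and 4002 to 7869 in WT marrow. S100a8 stood at 39729 scaled reads in NOS-null marrow replicate 1 and at 1428 to 3246 in the other NOS-null marrow libraries, against 441 to 1336 in WT marrow, and Lcn2 at 4090 ± 2012 in NOS-null marrow and 1678 ± 223 in WT marrow (adjusted p = 0.0542, and 0.0228 to 0.0481 without NOS-null marrow replicate 3 or 4 or with another scaling). The early granule genes Elane and Prtn3 stood at 32.8 and 92.3 scaled reads in NOS-null marrow replicate 1. In NOS-null marrow replicates 2 to 4 Elane was at 0 to 5.21 and Prtn3 at 7.61 to 10.4 scaled reads, against 0 to 0.99 and 2.96 to 9.94 in WT marrow. Without replicate 1 the markers Csf3r and Mmp9 were called higher (adjusted p = 0.0314 and 0.0357), as they were without NOS-null marrow replicate 3 (0.0337 and 0.0462), and Csf3r also under another scaling or the stricter filter (0.0473 to 0.0499), and without replicates 1 and 2 the number called was 0. The part of these cells in the Prg2 and Epx values was not tested.

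Basophils and mast cells had 5 tested markers and 0 limma calls (1 higher and 1 lower at unadjusted p under 0.05, beside 13.3% of all tested genes each way, median log2 change −0.34), the most abundant being Kit (721 ± 231 scaled reads in NOS-null marrow and 896 ± 200.5 in WT marrow), Gata2 (863 ± 340 in NOS-null marrow and 529 ± 157 in WT marrow) and Hdc (717 ± 295 in NOS-null marrow and 537 ± 122 in WT marrow), with adjusted p of 0.349, 0.131 and 0.355. The basophil protease gene Mcpt8 stood at 9.23, 5.21, 3.94 and 35.9 scaled reads in NOS-null marrow replicates 1 to 4, against 3.97, 4.68, 6.90 and 0.945 in WT marrow. NOS-null marrow replicate 4 was thus the highest NOS-null marrow library for Mcpt8, Ccr3 and Ear11, but also for Siglec5 (52.2), Il5ra (13.1) and Marco (15.2). Kit, Gata2 and Hdc were highest in NOS-null marrow replicate 1 (946, 1372 and 1151 scaled reads), against 893, 686 and 545 in replicate 4. Basophils also carry Ccr3, and their part in these values was not tested.

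**Figure D5:**
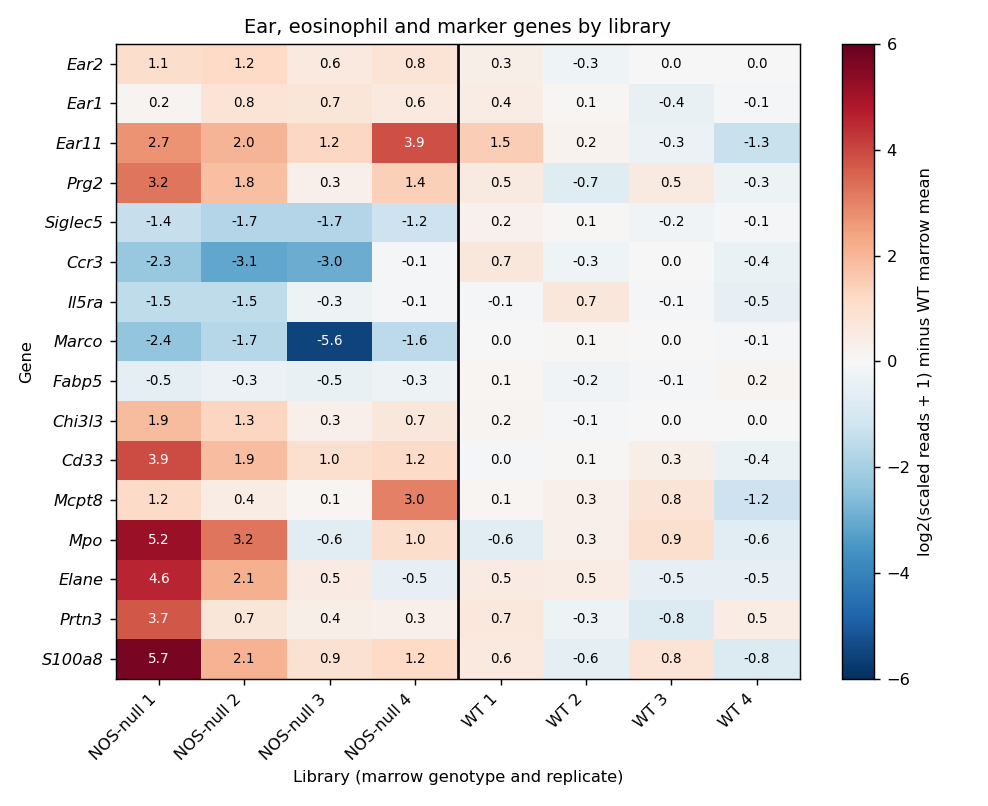
Log2(scaled reads + 1) minus the WT marrow mean, for Ear and eosinophil genes and for marker genes of other cells (rows) in each library (columns, NOS-null marrow left). Ear2 is above and Siglec5 below the WT marrow mean in all 4 NOS-null marrow libraries, Ccr3 is near it in replicate 4, and the granule genes Mpo, Elane and Prtn3 are highest in replicate 1.

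How the 3 tested genes varied within groups was described by the correlation of their deviations from the group mean over the 8 libraries, without a test. It was 0.19 between Ear1 and Ear2, 0.22 between Siglec5 and Ear2 and 0.16 between Siglec5 and Ear1. Among 12054 genes ranked, those most like Ear2 by this measure were Lyrm2 (0.98), Aimp1 (0.98), Klhdc8a (0.97), Isg20 (0.97) and Rpl38 (0.96). Those most like Ear1 were Nhej1 (0.98), Tor1b (0.96), Urb2 (0.94), Cyp4f16 (0.94) and Zfp873 (0.93). Those most like Siglec5 were Slc35c2 (0.96), Nudt21 (0.95), Armc9 (0.93), Pcdhgb1 (0.92) and Gapt (0.91). With 8 points taken from 12054 genes such values are descriptions of these libraries. Neither an eosinophil nor an alveolar macrophage marker of the lists is among them, but 5 genes of 12054 are too few for this to bear on a cell type.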

How the data were processed

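Lung RNA of 8 mice was isolated with oligo(dT) beads and sequenced as 75 bp single reads, per the labels' protocols. Per the submitters' processing notes, CASAVA 1.8.2, TopHat2 2.0.13, Bowtie2 2.2.3, SAMtools 0.1.19 and Cufflinks 2.2.1 were used with mm10. The sources used here do not give the annotation or the treatment of reads with several matches. The main table's values are a signal: read counts that the authors divided by 1 size factor per library (Cuffnorm's column style, per the file headers), so no count model was used. The deposited FPKM table served as an alternative and for levels per length. In a library 98.6 to 98.9% of positive values were within 0.05 of whole multiples of the lowest step, taken as 1 read, and 8 to 15 values lay below it.

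Groups were read from the titles, since the design text gives both groups the same marrow. Values plus 1 were log2-transformed, and limma 3.58.1 was run on genes reaching 10 in 4 or more libraries (R 4.3.3, trend, not robust), with no batch or block. Low genes were tested by exact permutation. Alternatives changed the pseudocount, filter, scaling, table, limma options and libraries, and the summed read-sharing pairs, gene ratios, pooled ratios with libraries left out and the sum without Chi3l3 were added after the values had been seen. All 8 genes, the related RNases, and the called or most abundant genes of each list are named, with the exceptions said in the text to be singled out, and Prg3, Mpo, Elane, Prtn3, Mcpt8, Siglecg, Ccl24, Ccl8, Ccl17, Ccl22, Siglec1, Csf3r and Mmp9, also chosen after their values were seen. The genes and lists were chosen with earlier results of these data known. Sequences came from RefSeq (9 of 10 genes sought, Prg2 missing) and transcripts from GENCODE M21; Ear7 and Ear12 were not matched there.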

Additional observations from a re-analysis of the deposited data

Results flagged for a closer look

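Of 122 groups of 4 libraries examined, 21 held a library far from the other 3 (gap to the nearest over the range above 0.829). This number cannot be set against a chance rate. The values were not log-transformed, and some of the genes were chosen after their values had been seen. A single library above 0 among libraries at 0 is always marked. In NOS-null marrow replicate 1 these were S100a8 (39729 scaled reads), S100a9 (29866), Csf3r (2543), Mmp9 (2215), Elane (32.8) and Prtn3 (92.3), genes of neutrophils and their precursors. The same library stood apart for Cd33 (1109), Siglece (399) and Gata2 (1372), all high, and for Cd36 (9735), which was low. It also held the 2.05 scaled reads of Prg3 in its group. In NOS-null marrow replicate 4 the genes were Ccr3 (50.03) and Mcpt8 (35.9), both high, and Nos1 (1.09, the others at 0). Ptgs1 was high in NOS-null marrow replicate 2 (1348).

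Among WT marrow libraries, replicate 1 held the reads of Epx (0.994) and Prg3 (1.99), the others being at 0. Replicate 2 was high for Cd22 (242) and Siglecg (135). In replicate 4 Ear7 was high (7.12), a gene whose reads are shared with Ear6, and Itgb2 was low (678). Neither Ear1, Ear2 nor Siglec5 had such a library in either group.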

How the results depend on the processing

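Siglec5 stayed called and Ear1 uncalled in all 20 alternatives. The Ear2 log2 change of 0.92 ran from 0.82 to 1.03 with 1 library left out and missed the threshold in 3 of these 8 fits, and it was 0.70, not called either (adjusted p = 0.056), without NOS-null marrow replicates 1 and 2. The count of 567 changed genes was 185 with limma without trend, 181 without NOS-null marrow replicates 1 and 2 and 71 to 798 with 1 library left out, and the cause was not tested. Genes not called with all 8 libraries, but called with 1 library left out, missed the threshold in other such fits. Their highest adjusted p there was 0.188 for Siglecg, 0.239 for Siglec1, 0.147 for Chi3l3 and 0.269 for Ly6c1. For Lcn2 it was 0.146, for Csf3r 0.134, for Mmp9 0.173, for Ccl8 0.435 and for Ccl22 0.275.

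The titles number both groups 1 to 4, but same-numbered libraries did not deviate together in every pair (correlations 0.04, 0.17, −0.003 and 0.15), nor did each correlate best with its own number, so they were not treated as paired. With the number as a replicate block, 135 genes were called, Ear2 (adjusted p = 0.0409) and Siglec5 (0.0134) among them.

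Changes near 0 turned sign for Ang (0.019 with FPKM, 0.085 without NOS-null marrow replicates 1 and 2, −0.075 to 0.063 over the fits with 1 library left out) and Rnh1 (−0.027 upper-quartile, −0.0039 quantile, −0.010 without replicates 1 and 2, −0.025 to 0.064 with 1 left out). So did Il4ra (−0.22 without replicates 1 and 2, −0.049 to 0.45 with 1 left out), Cd9 (−0.0058 upper-quartile, −0.067 without replicates 1 and 2, −0.026 to 0.085 with 1 left out) and Ptgs2 (−0.0086 upper-quartile, −0.21 to 0.39 with 1 left out). The Epx difference was −0.25 without replicates 1 and 2. Upper-quartile and quantile scaling moved the median of all genes by −0.05 and −0.02.

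Intervals of pooled reads and limits for values of 0 cover counting error only. At this depth no difference between the groups was detectable for Epx, Ear6, Ear10 or Prg3.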
